A study of Mus musculus with 6 samples.

Results

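On the arrays of this study a probe set reads a short stretch of transcript, and for some stretches the platform annotation lists more than 1 gene. These shared probe sets are described here: 4977 of the 241576 probe sets in the deposited table, after leaving out 130 that name a gene of the Ly6, Pcdha, Pcdhb, Pcdhg, H2-, Gst, Akr or Hist families. They carried 2975 gene symbols in 1778 gene groups, a gene group being all probe sets with the same set of symbols. Of the shared probe sets, 3369 named exactly 2 genes, and 1 or more named 17. The other probe sets named 1 gene (213361) or none (23108).

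The arrays came from 4TO7, a mouse mammary tumour cell line, in 2 groups of 3. The cells labelled Six2 were to overexpress the homeobox transcription factor Six2, and control cells carried the pcDNA vector. Biotin-labelled cRNA was made from 6 ug of total RNA per sample, and the deposited values are on a log2 scale. The labels number the replicates but name no separate cultures. The spread behind each p-value is therefore that of the arrays alone and could be technical.

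Genes come to share a probe set in a few ways. Tandem duplication leaves near-identical copies side by side, as in the testis-expressed clusters of the mouse X chromosome, and a probe that matches one copy matches the others. Retrotransposition places a processed copy of an mRNA, often annotated as a predicted gene, on another chromosome. Neighbouring genes can overlap at their ends, on the same or on opposite strands, and some loci give one transcript that carries 2 reading frames or runs through a pair of genes. In each case the reading is a sum over the transcripts that match, and the reading by itself does not tell which gene it came from.

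Sequences around transcription starts show what such sharing looks like. Each window below runs from 250 bases before to 50 bases after a RefSeq start on GRCm38.p6 and is written 5′ to 3′ on the gene's own strand. Snurf and Snrpn, the 2 reading frames of an imprinted bicistronic locus, have the same start at chr7:60005150-60005449 on the minus strand. Ang and Rnase4, secreted ribonucleases with a common promoter, have the same start at chr14:51090827-51091126 on the plus strand. Capitals in these windows mark CG dinucleotides, of which the first holds 7 and the second 8, against a median of 7 over 32817 promoter windows.
Snurf and Snrpn: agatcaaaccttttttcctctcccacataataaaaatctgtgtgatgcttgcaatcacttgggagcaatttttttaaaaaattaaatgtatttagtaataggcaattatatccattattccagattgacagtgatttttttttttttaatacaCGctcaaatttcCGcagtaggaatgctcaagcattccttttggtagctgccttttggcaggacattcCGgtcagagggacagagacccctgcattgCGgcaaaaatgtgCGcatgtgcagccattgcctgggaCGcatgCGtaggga
Ang and Rnase4: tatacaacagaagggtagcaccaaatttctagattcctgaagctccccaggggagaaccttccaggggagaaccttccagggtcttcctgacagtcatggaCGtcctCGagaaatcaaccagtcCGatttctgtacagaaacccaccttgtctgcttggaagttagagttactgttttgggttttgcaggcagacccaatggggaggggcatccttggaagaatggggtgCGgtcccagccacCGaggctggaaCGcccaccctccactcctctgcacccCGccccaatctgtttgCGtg

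Duplicated genes have windows of their own that differ at few bases, marked in capitals in the next 2 pairs. Ott (chrX:149097702-149098001, plus strand) and Luzp4 (chrX:148882326-148882625, plus strand) belong to a multicopy X-linked cluster and were the same at 296 of 300 bases. The predicted copies Gm15085 and Gm15091 were the same as Ott at 295 and 294 of 300. Hspa1a (chr17:34972107-34972406, minus strand) and Hspa1b (chr17:34959189-34959488, minus strand), the stress-inducible Hsp70 chaperone genes, also were the same at 296 of 300 bases.
Ott: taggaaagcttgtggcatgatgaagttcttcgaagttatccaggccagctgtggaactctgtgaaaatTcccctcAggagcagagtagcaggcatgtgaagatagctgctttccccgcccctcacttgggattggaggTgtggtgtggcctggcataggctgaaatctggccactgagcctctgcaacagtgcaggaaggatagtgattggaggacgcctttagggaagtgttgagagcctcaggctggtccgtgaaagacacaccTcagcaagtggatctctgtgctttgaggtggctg
Luzp4: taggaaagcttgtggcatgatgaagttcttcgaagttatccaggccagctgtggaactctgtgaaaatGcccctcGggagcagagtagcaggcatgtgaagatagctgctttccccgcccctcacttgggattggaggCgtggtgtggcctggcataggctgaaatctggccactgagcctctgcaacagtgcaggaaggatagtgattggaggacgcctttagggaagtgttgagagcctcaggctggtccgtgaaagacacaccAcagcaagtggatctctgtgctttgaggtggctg
Hspa1a: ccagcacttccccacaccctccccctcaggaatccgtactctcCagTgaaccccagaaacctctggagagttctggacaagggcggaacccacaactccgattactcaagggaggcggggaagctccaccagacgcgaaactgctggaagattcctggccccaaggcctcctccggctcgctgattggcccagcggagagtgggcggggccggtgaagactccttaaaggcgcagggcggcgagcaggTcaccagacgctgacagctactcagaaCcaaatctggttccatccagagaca
Hspa1b: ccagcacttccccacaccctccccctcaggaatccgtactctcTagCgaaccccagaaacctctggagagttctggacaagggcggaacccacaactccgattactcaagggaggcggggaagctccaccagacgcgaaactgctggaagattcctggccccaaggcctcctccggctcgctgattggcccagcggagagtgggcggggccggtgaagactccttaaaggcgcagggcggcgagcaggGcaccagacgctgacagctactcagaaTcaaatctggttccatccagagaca

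Over the whole table, the arrays correlated at 0.968 to 0.977 within the Six2 group, 0.978 to 0.980 within the control group and 0.957 to 0.969 between groups. The medians of the 4 probe sets of Six2 alone were 3.60, 3.94 and 4.03 on the Six2 arrays, against 3.69, 3.25 and 3.62 on the control arrays, and none of the 4 passed the test. These readings overlapped between the groups and lay near the 30th percentile of mean levels over the table, 3.98, so the arrays did not bear out the label, and Six2 cells means the cells labelled so throughout. Of the markers set for the labelled cell line, all 3 mesenchymal genes and 2 of 5 epithelial genes averaged above 6 in both groups. The same was true of 1 of 4 leukocyte genes and of none of 4 endothelial, 4 adipocyte and 3 muscle genes. No scan or hybridisation dates were used here, and any batch that ran with the group labels cannot be told apart from them.

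Six2 and control arrays were compared at each shared probe set with limma, with p-values adjusted over all probe sets, and a difference is Six2 minus control on the log2 scale. The adjusted p was under 0.05 at 168 shared probe sets (3.38%), of which 46 were higher and 122 lower in Six2 cells. Over all probe sets 2.80% passed, 1.20% higher and 1.60% lower. Part of the count came from repetition, since 1305 shared probe sets had the same 6 values as another probe set, in blocks of up to 16. Counted once per set of values, 110 of 4151 passed (2.65%), 37 higher and 73 lower. Of all 239356 sets of values 2.74% passed, 1.18% higher and 1.56% lower, so the share was near the background. In these bulk measurements, fewer cells that express a gene and less RNA per cell cannot be told apart.

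The 168 passing probe sets lay in 80 gene groups, and these joined into 55 clusters through shared symbols, 22 of them higher and 33 lower. No cluster passed in both directions. All 168 had groups that did not overlap, which held for 30.2% of shared and 29.8% of all probe sets. The smallest difference that passed was 0.66 in size, and 124 of the 168 reached 1. Where the mean level was above 6, 125 of 1813 shared probe sets passed (6.89%), and at a level of 4 or less 9 of 2035 did (0.442%). All probe sets passed at 3.86% and 1.02% in the same 2 ranges. Repeated values were not removed from these counts, and the Ott and Luzp4 cluster gave 45 of the 125, from 19 distinct sets of values.

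By the kind of sharing, 67 of 1312 probe sets that named genes with unlike symbols passed (5.11%), 7 higher and 60 lower. Most of these 60 came from the Ott and Luzp4 cluster. Counted once per set of values, 41 of 1232 passed (3.33%), 7 higher and 34 lower. All probe sets passed at 2.80%, and at 2.74% counted once. Probe sets of named genes with one name stem passed in 38 of 1432 cases (2.65%), and here 24 were higher and 14 lower. With the same values counted once these were 16 higher and 14 lower of 1157. Probe sets that paired 1 named gene with predicted or clone symbols passed in 48 of 1610 cases (2.98%), and those with predicted or clone symbols alone in 15 of 623 (2.41%). By position, 26 of 1212 probe sets of overlapping genes passed (2.15%), 113 of 2240 of near neighbours (5.04%) and 18 of 777 of genes on different chromosomes (2.32%). Once repeated values were counted once, near neighbours passed at 3.30%.

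**Figure D1:**
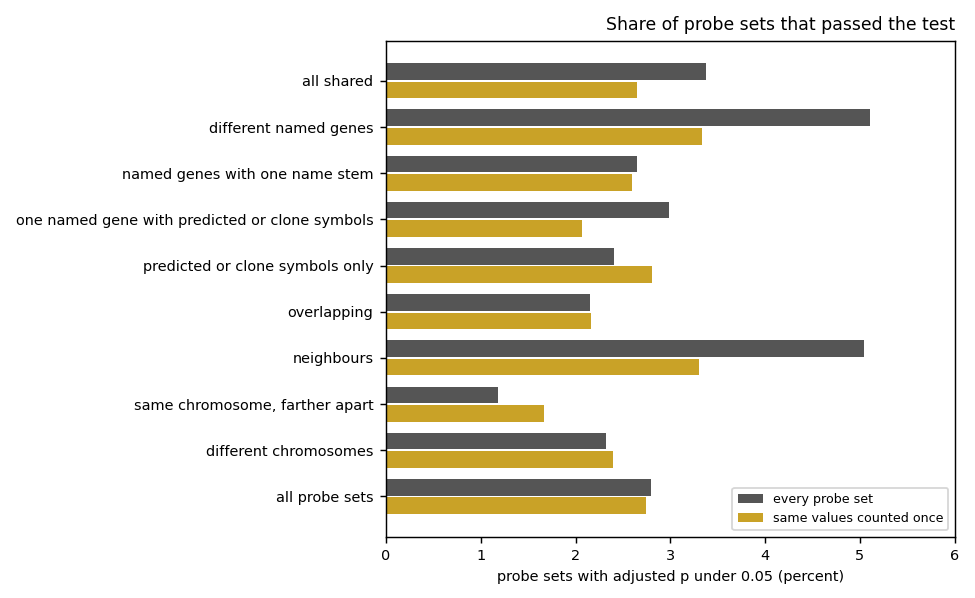
Percent of probe sets with a limma adjusted p under 0.05 (horizontal axis), by kind of sharing and by position of the genes, with all shared and all probe sets at the top and bottom. Dark bars count every probe set and yellow bars count probe sets with the same 6 values once; near neighbours passed at 5.04% and, counted once, at 3.30%, and all probe sets passed at 2.80% and 2.74%.

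Fabp5, which carries fatty acids in the cytosol, and the like-named Fabp5l2 fell at all of their shared probe sets. The probe set with the largest fall read 7.98, 7.93 and 8.06 on the Six2 arrays, against 9.70, 9.56 and 9.71 on the control arrays. The 3 Six2 arrays lay close together and below all control arrays. The difference was -1.67 (SE 0.12), 3.18-fold lower in Six2 cells, with a limma adjusted p of 0.0092. All 5 shared probe sets of the pair passed, at -1.67 to -1.47, and both probe sets of Fabp5 alone passed with a median of -1.55. Fabp5 lies on chromosome 3, whose bright single-gene probe sets had a median difference of 0.36 in the other direction.

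The cluster of Ott, a multicopy X-linked gene transcribed in ovary and testis, and Luzp4, whose human counterpart is a cancer and testis antigen, fell across most of its probe sets. This cluster and the Slx, 1700024B05Rik and Ass1 clusters were singled out after their values were seen. It held 78 probe sets with 26 distinct sets of values, of which 45 passed (19 distinct), all lower, and 74 of 78 were below 0. The medians over distinct values were 6.96, 7.07 and 6.94 on the Six2 arrays, against 7.87, 8.24 and 8.23 on the control arrays. Every Six2 median was below every control median, and the distinct differences ran from -1.48 to 0.16 with a median of -1.18. One probe set of the cluster read 7.26, 7.39 and 7.31 in Six2 cells and 8.47, 8.67 and 8.55 in control cells, a difference of -1.24 (SE 0.12, limma adjusted p = 0.0169). Bright single-gene probe sets of the X chromosome had a median difference of -0.02. The readings cannot be given to one copy, since each of these probe sets names several genes, and probe sequences were not used here.

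Slx, a spermatid gene related to the synaptonemal complex protein Sycp3, stands in a still larger X-linked cluster of 123 probe sets. Only 3 of its 34 distinct sets of values passed, all lower, though they made up 24 probe sets by repetition. The strongest of these, repeated in 10 probe sets, read 4.00, 3.49 and 3.69 on the Six2 arrays, against 5.44, 5.73 and 6.17 on the control arrays. The groups were well apart there, with a difference of -2.05 (SE 0.24, limma adjusted p = 0.0226). A brighter one, repeated in 13 probe sets, read 7.30, 7.40 and 7.65 in Six2 cells and 8.24, 8.38 and 8.42 in control cells. Most of the cluster was dim, and its distinct values had a median difference of -0.26.

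On chromosome 14, 1700024B05Rik and its predicted relatives formed a cluster of 12 probe sets, all below 0. Of these 10 passed (8 of 10 distinct), with differences of -1.38 to -0.74 over the cluster and a median of -0.91. The medians over distinct values were 6.10, 6.33 and 6.05 on the Six2 arrays, against 7.05, 7.22 and 7.37 on the control arrays, with no overlap. 

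Ass1, argininosuccinate synthetase of the urea cycle and of arginine synthesis, shares 18 probe sets with the predicted gene Gm5424. Of the 18 sets of values 17 were distinct. The probe sets fell in 5 cases, at -2.08 to -1.05, and 17 of 18 were below 0 with a median of -1.32. One of the 5 read 6.26, 6.51 and 6.15 in Six2 cells and 7.96, 7.70 and 7.31 in control cells. All Six2 readings were the lower ones there (difference -1.35, SE 0.21, limma adjusted p = 0.0379). The 1 probe set of Ass1 alone did not pass, with a difference of 0.42. It averaged 3.52 in Six2 cells and 3.10 in control cells, both under the 30th percentile of 3.98.

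Rises among duplicated genes were led by the SPEER family, glutamate-rich proteins known from spermatogenesis, on chromosome 5. The Speer4 cluster held 46 probe sets (40 distinct), of which 16 rose (12 distinct), and 40 were above 0 with a median of 0.54. Its strongest probe set, which names Speer4a, Speer4b and 4 predicted genes, read 8.25, 8.35 and 8.36 on the Six2 arrays, against 6.91, 6.95 and 7.14 on the control arrays. All Six2 arrays lay above all control arrays, with little spread in either group. The difference was 1.32 (SE 0.13), 2.50-fold, with a limma adjusted p of 0.0159. Of the 12 distinct sets of values with a mean level above 6, 10 rose. The 4 probe sets of Speer4a alone had a median of 0.52 and the 5 of Speer4b alone -0.24, and none of these passed.

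Xlr3a, Xlr3b and Xlr3c, X-linked lymphocyte-regulated genes, rose at 3 of their probe sets, which held the same values. These read 3.74, 5.02 and 4.52 on the Six2 arrays, against 2.14, 2.29 and 2.72 on the control arrays. The Six2 arrays were the higher ones but scattered, and the difference was 2.04 (SE 0.35, limma adjusted p = 0.0468). Its mean over the 6 arrays, 3.41, was under the 30th percentile of 3.98. The median over the 17 distinct values of the cluster was 0.26. Amy2a2 and Amy2a5, pancreatic amylases on chromosome 3, gave 55 probe sets but 16 distinct values, of which 1, repeated 4 times, rose. It read 4.84, 5.28 and 5.69 in Six2 cells and 3.98, 3.86 and 3.99 in control cells, a difference of 1.32 (SE 0.23, limma adjusted p = 0.0475). With each array centred on its median this call was lost (limma adjusted p = 0.0526). No amylase probe set had a mean level above 6, and the distinct values had a median of -0.13.

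**Figure D2:**
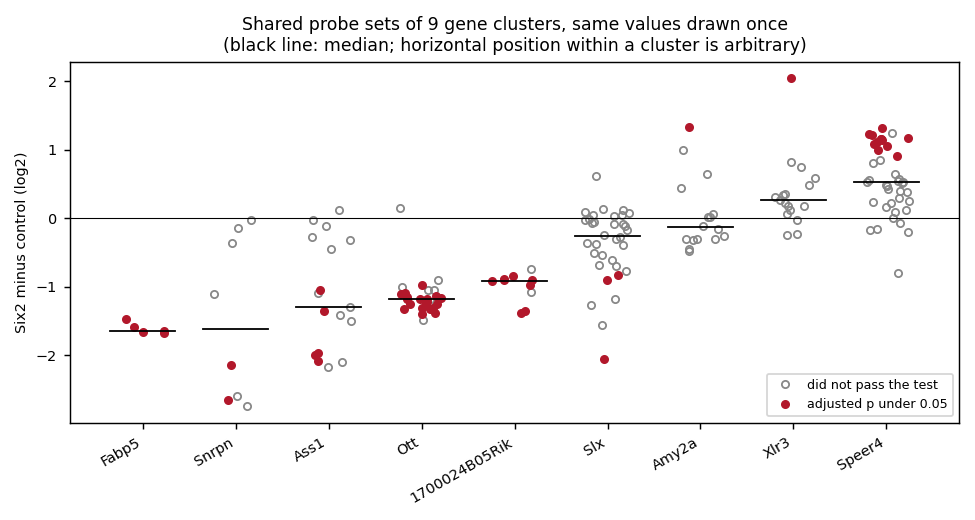
Six2 minus control differences (log2, vertical axis) of the shared probe sets in 9 gene clusters, with probe sets of the same 6 values drawn once. Filled points passed at an adjusted p under 0.05, open points did not and the black line is the median, which was lowest for Fabp5 (-1.64) and highest for Speer4 (0.53).

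Pairs of like genes gave further calls. Selenbp1 and Selenbp2, selenium-binding proteins, shared a probe set that read 5.45, 5.42 and 5.36 on the Six2 arrays, against 6.90, 6.84 and 7.25 on the control arrays. The groups lay far apart for their spread, at -1.59 (SE 0.15, limma adjusted p = 0.0162). The genes' own probe sets were also low, with 5 of 5 of Selenbp1 passing at a median of -2.76 and 3 of 6 of Selenbp2 at -1.61. Stfa2 and Stfa2l1, stefins that inhibit cysteine proteases, read 1.68, 1.62 and 1.60 in Six2 cells and 3.28, 3.01 and 3.28 in control cells. All 6 readings were under the 30th percentile of 3.98, and the difference was -1.56 (SE 0.13, limma adjusted p = 0.0133).

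Hspa1a and Hspa1b, whose start windows are shown above, shared 2 probe sets that parted ways. The brighter read 7.56, 7.70 and 7.72 on the Six2 arrays, against 8.84, 8.75 and 8.66 on the control arrays, without overlap. The difference was -1.09 (SE 0.12, limma adjusted p = 0.0221). The other had a difference of 0.02 and did not pass, at a limma adjusted p of 0.948. Both genes lie on chromosome 17, whose bright single-gene probe sets had a median of -0.28. This pair was picked after its values were seen.

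Myh6 and Myh7, the cardiac myosin heavy chains, shared 3 probe sets, of which 1 rose, at 3.61, 3.47 and 4.32 in Six2 cells and 1.80, 2.37 and 2.11 in control cells. The difference was 1.70 (SE 0.28, limma adjusted p = 0.0414), while the 3 together ran from -1.45 to 1.70. The mean over the 6 arrays was 2.95, under the 30th percentile of 3.98. The probe sets of each gene alone had medians of -0.04 for Myh6, where none of 28 passed, and 0.19 for Myh7, where 1 of 31 rose. Cpamd8 (Mug2 in RefSeq) and Mug-ps1, of the alpha-2-macroglobulin family, shared 6 probe sets, of which 1 rose. It read 5.15, 5.51 and 5.19 on the Six2 arrays, against 3.36, 3.59 and 2.70 on the control arrays. The groups did not overlap, and the difference was 2.07 (SE 0.26, limma adjusted p = 0.0260). Tmsb15b1, a thymosin beta that binds actin monomers, shared with a read-through symbol a probe set at 5.79, 4.72 and 4.79 in Six2 cells and 2.70, 3.06 and 3.15 in control cells. Its difference was 2.13 (SE 0.32, limma adjusted p = 0.0366), and the other 2 probe sets of the group did not pass.

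The largest rise that passed was that of Slc28a2, a concentrative nucleoside transporter, and Gm14085 (Slc28a2b in RefSeq), picked after its values were seen. It read 7.60, 7.77 and 7.70 on the Six2 arrays, against 5.13, 5.64 and 4.82 on the control arrays. The Six2 arrays were nearly equal and all above the control arrays, at at 2.49 (SE 0.23, limma adjusted p = 0.0148). The second probe set of this group had a difference of -0.08. Of the probe sets of each gene alone, 1 of 14 of Slc28a2 and 1 of 9 of Gm14085 rose, with medians of 0.08 and -0.13.

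Some groups of like genes with smaller falls were also picked after their values were seen. Dub1 and Dub3, deubiquitinating enzymes, fell at both of their 2 shared probe sets, at -1.27 and -1.04. Tubb2a and Tubb2b, beta tubulins, fell at their 1 shared probe set, at -0.86. The Dynlt1 genes, dynein light chains, had 9 shared probe sets, all below 0, of which 1 fell (-0.74), while the lowest (-1.26) did not pass. The Dynlt1 genes lie on chromosome 17, whose bright single-gene probe sets had a median difference of -0.28.

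Some named genes shared probe sets with a predicted gene on another chromosome. Ptp4a1, a protein tyrosine phosphatase, and Gm13363 had 7 shared probe sets, all above 0 at 0.42 to 0.82, of which 2 rose. Ppp2r5a, a regulatory subunit of protein phosphatase 2A, and Gm13244 had 7, all above 0 at 0.60 to 0.69, of which 2 rose. Both groups have a gene on chromosome 1, whose bright single-gene probe sets had a median difference of 0.45. Ube2h, a ubiquitin-conjugating enzyme, and Gm2058 had 8, all below 0 at -0.74 to -0.48, of which 2 fell. The probe sets of these genes alone had medians of 0.54 for Ptp4a1, 0.51 for Ppp2r5a and -0.70 for Ube2h, and none of these passed. These groups were likewise picked after their values were seen.

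Loci with joint transcripts gave the largest fall among the shared probe sets that passed. Snrpn encodes a core protein of the spliceosomal snRNPs, and Snurf is the reading frame upstream of it on the same transcript. The probe set read 2.81, 3.20 and 3.62 on the Six2 arrays, against 5.56, 6.10 and 5.93 on the control arrays. All Six2 readings were under the 30th percentile of 3.98 and all control readings above it. The difference was -2.65 (SE 0.26), 6.29-fold lower in Six2 cells, with a limma adjusted p of 0.0164. A second of the 8 Snrpn and Snurf probe sets fell, at -2.13 (limma adjusted p = 0.0408), and all 8 were below 0 with a median of -1.62. The other 6 did not pass, among them 2 at -2.74 and -2.59 whose Six2 arrays scattered more.

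The cytokine genes Tnfsf12 (TWEAK) and Tnfsf13 (APRIL) have a read-through transcript with a symbol of its own, and 5 probe sets named all 3. One read 4.28, 4.20 and 4.89 on the Six2 arrays, against 6.20, 6.14 and 6.40 on the control arrays. The difference was -1.79 (SE 0.22, limma adjusted p = 0.0243), and another fell, at -2.29 (limma adjusted p = 0.0496). All 5 were below 0. The 1 probe set of Tnfsf12 alone had a difference of -0.26 and the 2 of Tnfsf13 alone a median of -0.89, none of which passed. That of Tnfsf12 averaged 1.91 in Six2 cells and 2.17 in control cells, both under the 30th percentile of 3.98.

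Ang, angiogenin, and Rnase4 shared 3 probe sets, of which 1 fell and the others, at -1.75 and 0.81, did not pass. The one that fell read 6.01, 6.68 and 6.72 on the Six2 arrays, against 8.32, 8.22 and 7.66 on the control arrays. The Six2 arrays were the lower ones, at -1.60 (SE 0.28, limma adjusted p = 0.0467). The call was lost with each array centred on its median (limma adjusted p = 0.0505) and with chromosome medians subtracted (limma adjusted p = 0.0563). Of 3 probe sets of Rnase4 alone 2 fell, with a median of -1.92, while the 1 of Ang alone had a difference of -0.15 and did not pass. Starts were shared exactly in 11 gene groups with 83 probe sets, of which 1 was higher and 3 lower, 1 of them of Tmsb15b1, 1 of Ang and Rnase4 and 2 of Snrpn and Snurf. Of 63 probe sets whose genes had overlapping start windows on opposite strands, none passed with limma. With 2.80% of all probe sets passing, neither count stands apart from the background.

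Among overlapping or adjoining genes of unlike function, the shared reading was often set beside one gene's own probe sets. Which strand a probe set reads is not given in the sources used here, so 2 overlapping genes cannot be told apart by it. Cxcl16, a transmembrane chemokine, and Zmynd15, a testis zinc finger protein, shared a probe set that read 7.31, 6.88 and 6.94 on the Six2 arrays, against 8.81, 8.86 and 9.07 on the control arrays. No Six2 reading came near a control reading, and the difference was -1.87 (SE 0.17, limma adjusted p = 0.0142). The pair had 3 shared probe sets, of which 1 passed, and the others had differences of -1.22 and 0.34. Of the probe sets of one gene alone, 3 of 10 of Cxcl16 fell and none of 13 of Zmynd15 passed.

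Arg2, the mitochondrial arginase, and Vti1b, a SNARE protein of vesicle fusion, read 6.63, 6.84 and 6.73 in Six2 cells and 8.31, 8.17 and 8.10 in control cells. Their difference was -1.46 (SE 0.13, limma adjusted p = 0.0140). The second shared probe set of this pair had a difference of -0.01 and did not pass. Own probe sets had medians of -1.30 for Arg2, with 3 of 7 lower, and 0.28 for Vti1b, with 0 of 7 passing. Slc6a9, the glycine transporter GlyT1, and Ccdc24, a coiled-coil protein, read 7.20, 7.10 and 7.23 in Six2 cells and 8.57, 8.72 and 8.41 in control cells. This fall of -1.39 (SE 0.13, limma adjusted p = 0.0163) stood beside 12 of 14 lower for Slc6a9 alone and 0 of 7 for Ccdc24 alone.

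The tyrosine kinase Tnk1 and the phospholipid scramblase Plscr3 read 3.20, 3.09 and 3.35 on the Six2 arrays, against 5.75, 5.32 and 5.11 on the control arrays. The groups were apart by more than either spread, at -2.17 (SE 0.20, limma adjusted p = 0.0150). The Six2 readings were all under the 30th percentile of 3.98. All 6 shared probe sets of this pair were below 0, with a median of -0.67, and only 1 passed. Abi3, an Abl interactor, and Phospho1, a phosphatase of bone mineralisation, fell at 2 of 3 probe sets. The stronger read 5.60, 5.67 and 6.14 in Six2 cells and 7.22, 7.24 and 7.40 in control cells, at -1.49 (SE 0.18, limma adjusted p = 0.0250). Fchsd1, an SH3 domain protein, and Rell2, of the RELT family, had 7 shared probe sets, all below 0. The 1 that fell read 2.44, 2.51 and 3.10 in Six2 cells and 4.39, 4.24 and 4.46 in control cells, at -1.69 (SE 0.21, limma adjusted p = 0.0256). Its mean over the 6 arrays, 3.52, was under the 30th percentile of 3.98.

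The pair of Dbp and Sphk2 was picked after its values were seen. Dbp, a clock-controlled transcription factor, and Sphk2, a sphingosine kinase, read 8.14, 8.23 and 8.04 on the Six2 arrays, against 9.49, 9.38 and 9.38 on the control arrays. The spread within each group was small, and the difference was -1.28 (SE 0.12, limma adjusted p = 0.0155). For Dbp alone 3 of 5 fell and for Sphk2 alone 0 of 10 passed.

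Rises were fewer among overlapping and adjoining genes. Evi2a and Evi2b, which lie next to each other in an intron of Nf1, had the brightest. It read 10.01, 9.88 and 9.95 on the Six2 arrays, against 7.87, 8.50 and 8.29 on the control arrays. The Six2 arrays were close together above the control arrays, at 1.73 (SE 0.19), 3.32-fold, with a limma adjusted p of 0.0205. Their second shared probe set rose too, at 1.62 (limma adjusted p = 0.0240). Of the probe sets of one gene alone, 4 of 4 of Evi2a rose with a median of 1.84, and 2 of 4 of Evi2b with a median of 1.17.

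Hyal1, a lysosomal hyaluronidase, and Nat6, an N-acetyltransferase, rose at 2 of 5 shared probe sets, and all 5 were above 0. The stronger read 7.58, 7.68 and 7.65 in Six2 cells and 6.16, 6.35 and 6.44 in control cells, a difference of 1.32 (SE 0.13, limma adjusted p = 0.0168). Hyal1 alone had a median of 1.05, with 1 of 2 higher, and the 1 probe set of Nat6 had -0.15. Pfkfb2, which sets the level of the glycolytic activator fructose bisphosphate, and Yod1, a deubiquitinase, read 7.03, 7.04 and 7.23 in Six2 cells and 5.64, 5.92 and 6.04 in control cells. The groups did not overlap, and the difference was 1.23 (SE 0.15, limma adjusted p = 0.0256). Both lie on chromosome 1, whose bright single-gene probe sets had a median difference of 0.45. With that median subtracted the difference was 0.78 and no longer passed (limma adjusted p = 0.0708).

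Pyroxd1, an oxidoreductase, and Recql, a DNA helicase, read 5.59, 6.41 and 6.46 on the Six2 arrays, against 4.07, 4.27 and 4.59 on the control arrays. The lowest Six2 reading was still above the highest control reading, at 1.84 (SE 0.28, limma adjusted p = 0.0380). The pair had 6 shared probe sets, from -0.09 to 1.84 with a median of 0.68, of which only 1 passed. Neither gene's own probe sets passed, with medians of 0.15 over 11 for Pyroxd1 and -0.02 over 17 for Recql. Cdan1, codanin, and Ttbk2, a kinase of cilium formation, had 29 shared probe sets, of which 1 rose. It read 7.43, 7.08 and 7.26 in Six2 cells and 6.03, 5.81 and 6.16 in control cells, at 1.26 (SE 0.16, limma adjusted p = 0.0263). The 29 ran from -1.19 to 1.31 with a median of 0.23.

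**Figure D3:**
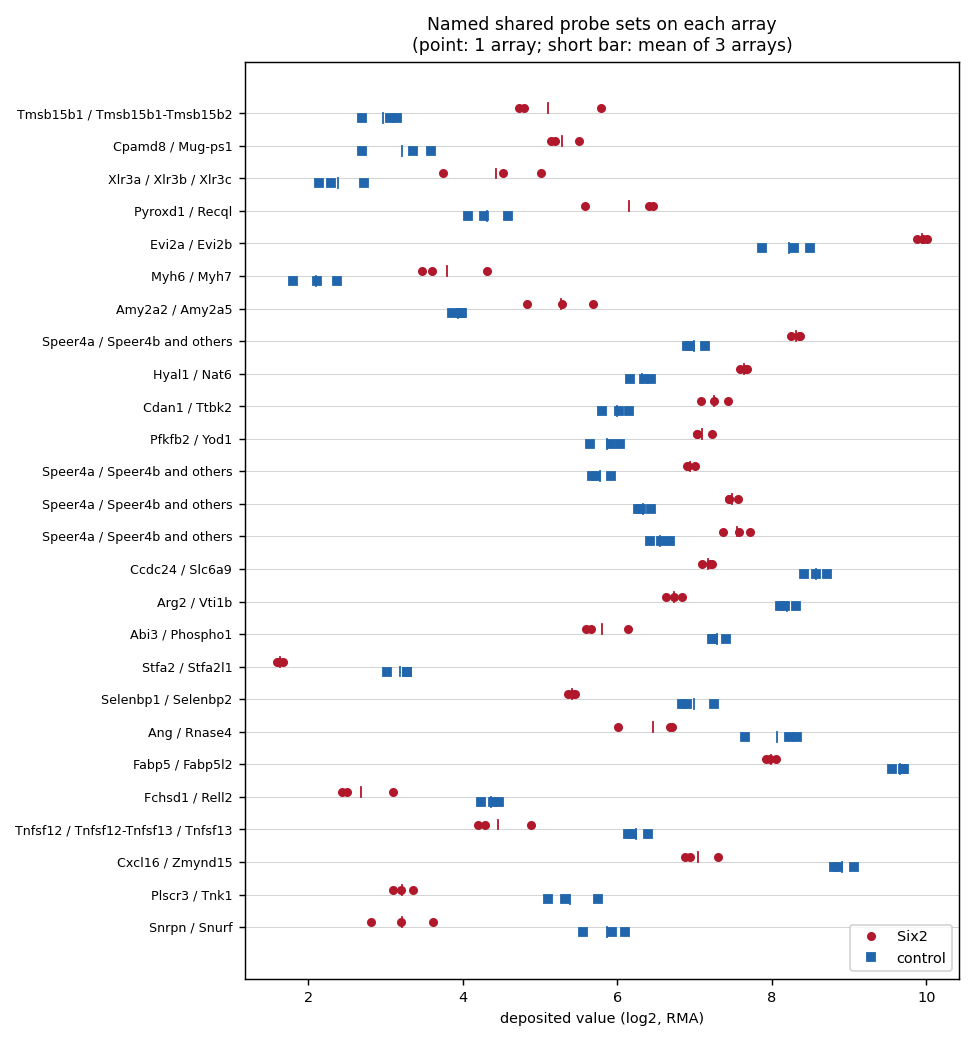
Deposited values (log2, horizontal axis) of the 26 named shared probe sets on each array, ordered by difference from the largest rise at the top. Circles are Six2 arrays, squares control arrays and short bars group means; the groups did not overlap in any of them, by the naming rule, and Snrpn and Snurf at the bottom averaged 3.21 in Six2 cells and 5.86 in control cells.

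Whether a shared probe set moved unlike the genes it names was tested directly, with the shared value minus the median of each gene's own probe sets in the same array. This gave 6634 pairs from 3995 shared probe sets, while 982 had no gene with probe sets of its own. The limma adjusted p was under 0.05 for 14 pairs (0.211%), and 961 pairs had an unadjusted p under 0.05. All 14 calls were lost with the mean of own probe sets in place of their median, and on leaving out any 1 array. Of the 14, 9 set a Speer4 probe set against Speer4b, whose own reading in this test averaged 3.20 in Six2 cells and 3.79 in control cells. Both are under the 30th percentile of 3.98, so these 9 calls are differences from a reading near the bottom of the scale and do not show that the probe sets moved unlike Speer4b. The others were Mug-ps1, Ttbk2, Plscr3 and, at 2 probe sets shared with 9430076C15Rik, Creb5, a transcription factor of the CREB family.

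For Cpamd8 and Mug-ps1 the shared probe set moved above Mug-ps1 by 2.77 (limma adjusted p = 0.0371). The test against Cpamd8 alone gave 2.06 (limma adjusted p = 0.234). The own reading of Mug-ps1 averaged 2.98 in Six2 cells and 3.68 in control cells, under the 30th percentile of 3.98, so this does not show that the shared probe set moved unlike Mug-ps1. For Cdan1 and Ttbk2 it was above Ttbk2 by 1.59 (limma adjusted p = 0.0379), and against Cdan1 the value was 1.49 (limma adjusted p = 0.235). For Plscr3 and Tnk1 it was below Plscr3, at -1.67 (limma adjusted p = 0.0485), and against Tnk1 the value was -0.99 (limma adjusted p = 0.284). A value past the threshold for one gene and not for the other does not show that the 2 genes differ, which was not tested.

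Several pairs with unlike own values missed the threshold. The passing shared probe set of Arg2 and Vti1b minus Vti1b gave -1.78 and that of Ccdc24 and Slc6a9 minus Ccdc24 gave -1.51, both at a limma adjusted p of 0.074. Against the partner gene the values were -0.10 for Arg2 and -0.12 for Slc6a9. The strongest probe set of Hyal1 and Nat6 minus Nat6 gave 1.47 (limma adjusted p = 0.0628), against 0.27 for Hyal1.

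**Figure D4:**
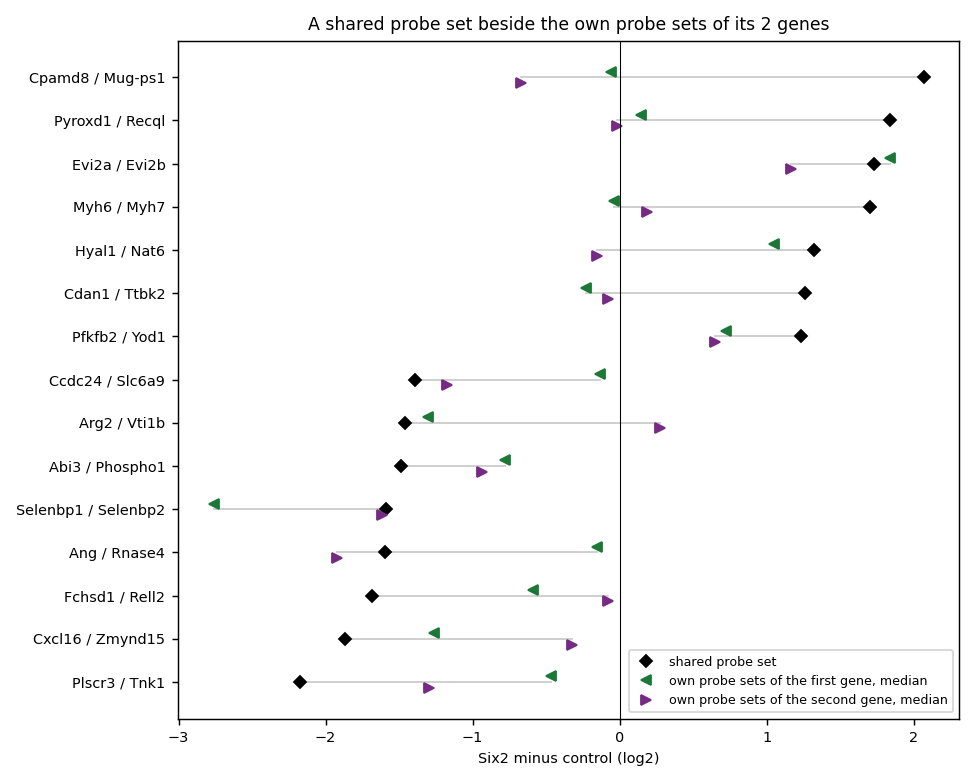
Six2 minus control differences (log2, horizontal axis) of 15 named shared probe sets that pair 2 genes with probe sets of their own. Diamonds are the shared probe set and triangles the median over each gene's own probe sets; for Arg2 and Vti1b these were -1.46, -1.30 and 0.28, and for Pyroxd1 and Recql the diamond at 1.84 stood apart from both triangles.

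Of 58 gene families listed, 40 had shared probe sets, 908 in all, of which 21 were higher and 2 lower. That is 2.53%, near the 2.80% of all probe sets. Calls fell in 6: SPEER (13 higher), amylases (4 higher), the MAGE and XLR genes (3 higher), tropomyosins and myosins (1 higher), tubulins (1 lower) and heat shock proteins and chaperones (1 lower). None of 135 vomeronasal receptor, 111 olfactory receptor, 68 cytochrome P450, 32 serpin, 29 killer cell lectin receptor and 24 defensin probe sets passed. The median levels of these families were low, from 2.41 for vomeronasal receptors to 3.38 for defensins. Ribosomal proteins were the bright counterpart, since all 49 probe sets had a mean level above 6, none passed and the differences ran from -0.24 to 0.27.

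A pair of bright clusters also had no call, and were picked after their values were seen. Rnaset2a and Rnaset2b, lysosomal ribonucleases of chromosome 17, had 27 probe sets (16 distinct values) with a median over distinct values of -0.36. The medians on the arrays were 9.32, 9.25 and 9.22 in Six2 cells and 9.66, 9.62 and 9.63 in control cells, which did not overlap. Bright single-gene probe sets of chromosome 17 had a median difference of -0.28. Ppp2r3c with the Srp54 genes, the latter encoding the signal recognition particle's GTPase, had 46 probe sets (26 distinct values) with a median of 0.04.

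MicroRNA and small nucleolar RNA genes were named by 77 shared probe sets with 52 distinct values, and none passed with limma, where 12 had an unadjusted p under 0.05. The differences ran from -0.82 to 1.02. The highest was Mir21 with Tmem49, at 6.51, 6.84 and 7.13 on the Six2 arrays, against 5.14, 6.25 and 6.03 on the control arrays. Its groups did not overlap, and the difference of 1.02 did not pass (limma adjusted p = 0.152). A gene pair such as Mir21 and its host is read on long RNA here, so the mature microRNA is not measured apart.

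Copies of 1 microRNA are the plainest case of shared sequence, since the mature products can be the same. The mature sequences of the 2 families below came from RefSeq on GRCm38.p6, with the seed (bases 2 to 8) in capitals. The 3p product of Mir465b-1 and Mir465b-2 is the same as the 3p product of the Mir465c genes at all 22 bases. Other products of the Mir465 genes were not compared. Mir683-1 and Mir683-2 give 1 product. The seeds of these 2 families differ.
mmu-miR-465b-3p: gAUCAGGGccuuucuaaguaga
mmu-miR-683: cCUGCUGUaagcuguguccuc
The 2 shared probe sets of the 4 Mir465 genes held the same values and read 2.07, 1.94 and 1.97 in Six2 cells and 2.05, 2.31 and 2.04 in control cells. The 2 naming Mir683-1 and Mir683-2 alone, which held the same values, read 2.95, 2.55 and 2.69 in Six2 cells and 2.88, 2.88 and 2.86 in control cells. In both cases the groups overlapped, and all readings were under the 30th percentile of 3.98. Mir669a-2 and Mir669a-3 gave 13 probe sets with the same values, at a difference of 0.14 (limma adjusted p = 0.661).

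The number of calls changed with which array was left out, and the cause was not tested. Where the 6 arrays gave 168 calls with limma, leaving out any 1 control array gave 0, beside 0.00% of all probe sets. Leaving out Six2 array 1, 2 or 3 gave 8, 4 or 31 (0.161%, 0.0804% and 0.623%). All probe sets then passed at 0.273%, 0.221% and 0.499%. The differences of the 26 named probe sets kept their direction and stayed between 0.63 and 1.23 times their size in every alternative that tested them. With the median of each chromosome subtracted 21 of the 26 calls were kept, and the 5 lost were Pfkfb2 with Yod1, Amy2a2 with Amy2a5, the Xlr3 genes, Ang with Rnase4 and 1 Speer4 probe set. A median was subtracted only from probe sets with a mean level above 6 whose genes lie on a single chromosome. The rest kept their differences, among them the Xlr3 genes (2.04) and Amy2a2 with Amy2a5 (1.32), where only the adjusted p changed.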

How the data were processed

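The log2 values were deposited by the authors. Per the submitters' processing notes they were made by RMA in Affymetrix Power Tools. The sources used here do not give versions, a probe set filter or a genome build. Gene symbols came from the platform annotation, which can be old, and 2965 of the 2975 were found in the RefSeq table of GRCm38.p6, 459 of them under another symbol. The shared probe sets were those with more than 1 symbol. Genes within 10 places of each other in gene order counted as neighbours.

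All 241576 probe sets were fitted with limma 3.58.1 in R 4.3.3 (lmFit and eBayes), 3 Six2 arrays against 3 control arrays, with Benjamini-Hochberg adjustment over all of them and a threshold of 0.05. The second test took each shared value minus the median of a gene's own probe sets in the same array, adjusted over all pairs. The number of arrays limits the precision. The tests were checked on simulated data.

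Named were the 12 gene groups with the largest rises and the 12 with the largest falls among those that passed without overlap and held at least 2 named genes, by their probe set of smallest p. Up to 3 gene groups a direction were added from each family with 2 or more passing probe sets, and up to 6 from the second test. The members, lists and rule were chosen with earlier results of these data known. Alternatives were centring, chromosome medians, quantile normalization, a variance trend, dim probe sets left out, a replicate block, leaving out each array and other ways to count. The replicate numbers did not pair the arrays, with correlations of deviations of -0.02, 0.00 and -0.04 for the same number.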

Additional observations from a re-analysis of the deposited data

How the results depend on the processing

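The 26 named probe sets kept their direction in every alternative that tested them. Centring each array kept 24 of their calls, losing Ang with Rnase4 and Amy2a2 with Amy2a5. Subtracting chromosome medians, which changed only those with a mean level above 6 and genes on a single chromosome, kept 21. Quantile normalization and the variance trend kept all 26. Leaving out dim probe sets kept 22 and did not test the other 4 (Xlr3, Myh6 with Myh7, Stfa2 with Stfa2l1 and Fchsd1 with Rell2). For the counts of shared probe sets that passed, centring (172) and quantile normalization (168) stayed within 1.5 times of 168. These were 3.46% and 3.38%, beside 2.67% and 2.84% of all probe sets. Subtracting chromosome medians gave 119 (2.39%, beside 1.80% of all probe sets). Of these 23 were higher in place of 46 (0.462%, beside 0.600% of all). Leaving out dim probe sets, which tests fewer of them, gave 284 (9.59%, beside 8.26% of all probe sets). Of these 104 were higher (3.51%, beside 3.93% of all). A variance trend with robust variance gave 389, of which 144 were higher and 245 lower, beside 8.33% of all probe sets. Counting only probe sets with exactly 2 symbols gave 66 (1.96%, 27 higher and 39 lower). Only those with at least 2 named symbols gave 105 (3.83%, 74 lower). Both stand beside 2.80% of all probe sets. The same 6 values counted once, a choice made after seeing the data, gave 110 (2.65%, 73 lower), beside 2.74% of all. Each counts fewer probe sets. Gene groups in place of probe sets gave 177 of 1778 (9.96%), beside 13.9% of all gene groups.

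Leaving out 1 array gave 0 to 31 calls, with 0 to 5 higher and 0 to 26 lower, each from fewer samples. All probe sets then passed at 0.00% to 0.499%. With the replicate number as a block, 0 shared probe sets and 0 pairs passed, beside 0.00% of all probe sets. The block uses up residual degrees of freedom, and the numbers did not pair the arrays. For shared minus own probe sets, 14 pairs became 28 for genes with at least 3 own probe sets and 0 with the mean of own probe sets in place of the median, and the cause was not tested. Leaving out any 1 array gave 0 pairs.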
